A study of Mus musculus with 6 samples.

Results

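Progression through the cell cycle is driven by certain cyclin-dependent kinases (CDKs), which in this role are active only when bound to a cyclin partner. D-type cyclins with CDK4 or CDK6, and then E-type cyclins with CDK2, phosphorylate the retinoblastoma protein and so free the E2F transcription factors that turn on genes of S phase, whereas A- and B-type cyclins with CDK2 and CDK1 serve DNA replication and mitosis. The inhibitors of the CIP/KIP family (p21, p27 and p57) and of the INK4 family bind these kinases, and preadipocytes are known to divide for a short period after hormonal induction before they leave the cycle and mature. The genes of these 4 groups were examined here as a module: those named as numbered cyclins (Ccng2 excepted), as numbered CDKs, as CDK inhibitors of the Cdkn1 and Cdkn2 families, or as E2f1 to E2f8. Of 56884 gene identifiers, 50 met that rule. The level was the TPM (a level per transcript length, scaled so that every library sums to the same total), and 47 of the 50 reached a TPM of 0.5 in at least 3 libraries and entered the test, which ran over 15426 genes.

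The RNA came from immortalized cell lines of mouse subcutaneous white adipose stromal vascular fraction cells, which hold adipocyte precursors. The paper does not say how they were immortalized. Each line was stably transduced with a retroviral HA-tagged PPARγ2 carrying glutamine (K382Q, which mimics acetylated lysine) or arginine (K382R, which mimics the deacetylated state) at K382, selected with puromycin and taken at day 2 of beige adipocyte differentiation. Both groups shared the cell background and the inducing medium with IBMX, indomethacin, dexamethasone, insulin, T3 and rosiglitazone, and no line without a mutant PPARγ2 was analysed here. There were 3 libraries per group, labelled biological replicates, so p-values measure the spread among these libraries, and whether the lines were derived independently is not given.

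Depth, taken as the aligned sequence implied by coverage and FPKM, was 5.952 to 7.5 Gb in K382Q and 6.526 to 8.154 Gb in K382R. Precursor and adipocyte markers were both present: 6 of 8 preadipocyte or fibroblast markers passed the filter, Dlk1 and Cd34 did not, and all 7 adipocyte markers did. The 6 leukocyte markers were under 0.5 TPM in every library, as were 4 of 5 endothelial and 3 of 4 epithelial markers. Summed TPM of the precursor markers, mostly Ly6a, was 570.3 to 614.7 in K382Q and 940.1 to 978.8 in K382R. All 6 tested were lower in K382Q, with log2 fold changes from -1.25 for Thy1 to -0.25 for Col3a1. Of the 7 adipocyte markers, Fabp4 and Cd36 were higher, Adipoq, Cebpa, Lpl and Pparg were lower, and Plin1 was not called on TPM (the call of Lpl was lost on both rescaled forms described below), with log2 fold changes from -1.28 for Adipoq to 0.43 for Cd36. Their summed TPM, mostly Fabp4, was 52504 to 56108 in K382Q and 43734 to 44879 in K382R. The TPM of Pparg, which includes any transgene reads that aligned to it, was 1333, 1164 and 1104 in K382Q against 1590, 1632 and 1612 in K382R. The part of these differences in the results below was not tested, and in bulk RNA fewer cells of a type and less RNA per cell cannot be told apart.

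At an adjusted p under 0.05 (limma, over all genes tested), 9 members were higher and 22 were lower in K382Q than in K382R, and 16 were not called. Over all genes tested, 11.1% were called higher and 36.9% lower. The members' shares were 19.1% and 46.8%. No member passed a fold change of 2 in either direction, where 1.27% of all genes were over 2-fold higher and 2.61% over 2-fold lower. Past a fold of 1.5, 1 member was higher (Cdkn1b) and 3 were lower (Ccng1, Ccnd1 and E2f3), against 3.74% and 8.34% of all genes. At an unadjusted p under 0.05, 10 members were higher and 22 lower. The 3 K382Q libraries did not overlap the 3 K382R libraries in 32 of the 47 members (68.1%), against 57.0% of all genes.

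The direction of small changes depended on the scaling. The median log2 fold change was -0.14 over all genes tested and -0.11 over the members, so a typical gene was lower in K382Q on the TPM scale. Where libraries were rescaled so that the median gene had an equal level in both groups (median-ratio scaling), 19.8% of all genes were higher and 20.4% lower, and 17 members were higher and 9 lower. The share of higher calls among all calls was 23.2% on TPM and 49.2% with this rescaling. With coverage in place of TPM and the same rescaling, 15 members were higher and 10 lower, against 20.3% and 21.2% of all genes. On all 3 scales the same 16 members were called in the same direction. The 9 higher ones were Cdkn1a, Cdkn1b, Cdkn1c, Cdkn2b, Cdkn2d, Ccne2, Ccnl2, Cdk5 and E2f1, and the 7 lower ones were Ccnd1, Ccnd2, Ccnb1, Ccng1, Cdk6, E2f3 and E2f6. The other 15 lower calls were lost on at least 1 of these scales, and a member described below as lower on TPM is one of these.

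**Figure D1:**
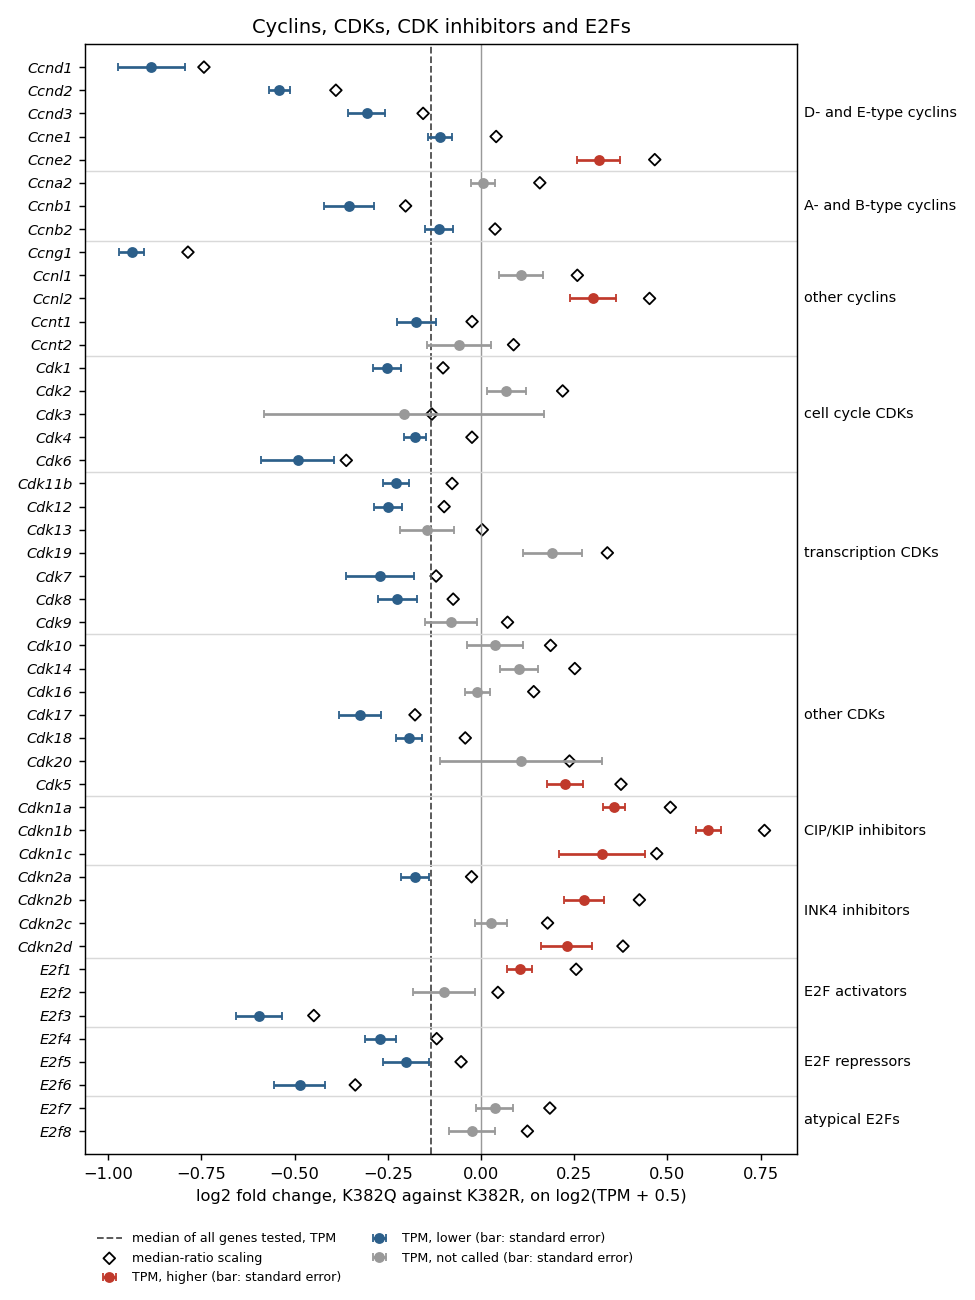
Log2 fold change of K382Q against K382R for the 47 tested members, ordered by role (vertical axis), on the log2(TPM + 0.5) scale (circles, with standard errors over 3 libraries per group) and with median-ratio scaling (open diamonds). The dashed line marks the median of all genes tested at -0.14. Ccng1 and Ccnd1 lie farthest to the left at -0.94 and -0.89 and Cdkn1b farthest to the right at 0.61, and each diamond lies to the right of its circle.

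Of the D-type cyclins, which couple growth signals to CDK4 and CDK6, all 3 were called lower by TPM, where 36.9% of all genes were. Ccnd1 and Ccnd2 were also called lower with median-ratio scaling and on rescaled coverage, where 20.4% and 21.2% of all genes were. Ccnd2 (cyclin D2, chr6:127102125-127129156, GRCm39 as in the files) was the most abundant, at 120, 115 and 119 TPM in K382Q and 171, 171 and 173 in K382R. Ccnd1 (cyclin D1, chr7:144483668-144493662) was at 4.74, 5.10 and 4.97 TPM in K382Q and 8.93, 9.11 and 10.7 in K382R. Every K382Q library lay below every K382R library for both genes. The log2 fold change was -0.54 (SE 0.029, adjusted p = 5.7e-06) for Ccnd2 and -0.89 (SE 0.090, adjusted p = 1.4e-04) for Ccnd1. Ccnd3 (cyclin D3) had means of 80.5 ± 5.04 and 99.6 ± 2.88 TPM (SD, n = 3), a log2 fold change of -0.31 that was also called with median-ratio scaling but not on rescaled coverage. The 3 D-type cyclins together summed to 207, 204 and 198 TPM in K382Q and 283, 277 and 282 in K382R, so their sum fell by 27.6%.

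Ccnd1 shares 48.4% of its annotated exon bases with LTO1, a gene on the opposite strand, in GENCODE release M39, and reads of both strands cannot be told apart in a library that does not mark strand. LTO1 was at 15.7, 16.8 and 15.5 TPM in K382Q and 13.4, 15.5 and 16.1 in K382R, with overlapping groups, and was not called on TPM. With median-ratio scaling it was called higher (log2 fold change 0.24, adjusted p = 0.040, limma), and on rescaled coverage it was not called. Cyclin D2 made up most of the D-type cyclin RNA in both groups, and within each library it stood at 22.6 to 25.2 times the TPM of Ccnd1 in K382Q and 16.2 to 19.2 times in K382R.

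The 2 E-type cyclins, partners of CDK2 at the entry to S phase, differed in direction. Ccne2 was at 72.1, 62.1 and 64.5 TPM in K382Q and 54.1, 51.2 and 53.9 in K382R, without overlap, and rose by 0.32 on the log2 scale (SE 0.059, adjusted p = 0.0031). Ccne1 was lower on TPM, with means of 69.6 ± 1.09 and 75.2 ± 1.21 (log2 fold change -0.11), and its sign turned to 0.04 with median-ratio scaling. The ratio of Ccne2 to Ccne1 within a library was 1.03, 0.908 and 0.917 in K382Q and 0.706, 0.689 and 0.720 in K382R, a measure that does not depend on the scaling of a library. Their summed TPM overlapped between the groups, at 130 to 142 in K382Q and 125 to 131 in K382R.

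Among A- and B-type cyclins, Ccna2 (cyclin A2, which acts in S phase and at the entry to mitosis) was the most abundant, at 159, 157 and 155 TPM in K382Q and 154, 154 and 162 in K382R. These groups overlapped, with a log2 fold change of 0.01, although Ccna2 was called higher with median-ratio scaling at 0.16. Ccnb1 (cyclin B1, the partner of CDK1 in mitosis) was at 132, 114 and 117 TPM in K382Q against 153, 145 and 166 in K382R. It fell on all 3 scales, by 0.35 on TPM (SE 0.066, adjusted p = 0.0032). Ccnb2 was lower on TPM with means of 96.9 ± 3.51 and 104.9 ± 2.52 (log2 fold change -0.11), and its sign turned with median-ratio scaling, to 0.04. Within a library, Ccnb1 stood at 0.725 to 0.826 times the TPM of Ccna2 in K382Q and at 0.942 to 1.02 times in K382R. The germline cyclins Ccna1 and Ccnb3 did not pass the filter: Ccna1 reached at most 0.130 TPM in any library, and Ccnb3 was listed at 0 in all 6.

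The cyclins outside the G1 to M series were mixed. Ccng1 (cyclin G1, a target of p53, chr11:40639379-40646138) was the largest decrease of the module on the log2(TPM + 0.5) scale, at 72.8, 69.4 and 73.3 TPM in K382Q and 137, 138 and 140 in K382R. The groups did not overlap, and the log2 fold change was -0.94 (SE 0.033, adjusted p = 1.1e-06). By the ratio of mean TPM, Ccnd1 fell by 48.4% and Ccng1 by 48.0%. Ccnl2 (cyclin L2, which acts in RNA splicing) rose, with means of 93.1 ± 8.53 and 75.2 ± 0.400 TPM and a log2 fold change of 0.30. Its relative Ccnl1 had overlapping groups (84.6 ± 6.54 and 78.4 ± 2.47 TPM) and was not called on TPM, but was called higher on both rescaled forms and on coverage without rescaling. Of the T-type cyclins, partners of CDK9 in transcription elongation, Ccnt1 was lower on TPM (35.8 ± 2.32 against 40.4 ± 0.232) and Ccnt2 was not called on any of the 3 scales (14.1 ± 1.44 against 14.7 ± 1.00).

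**Figure D2:**
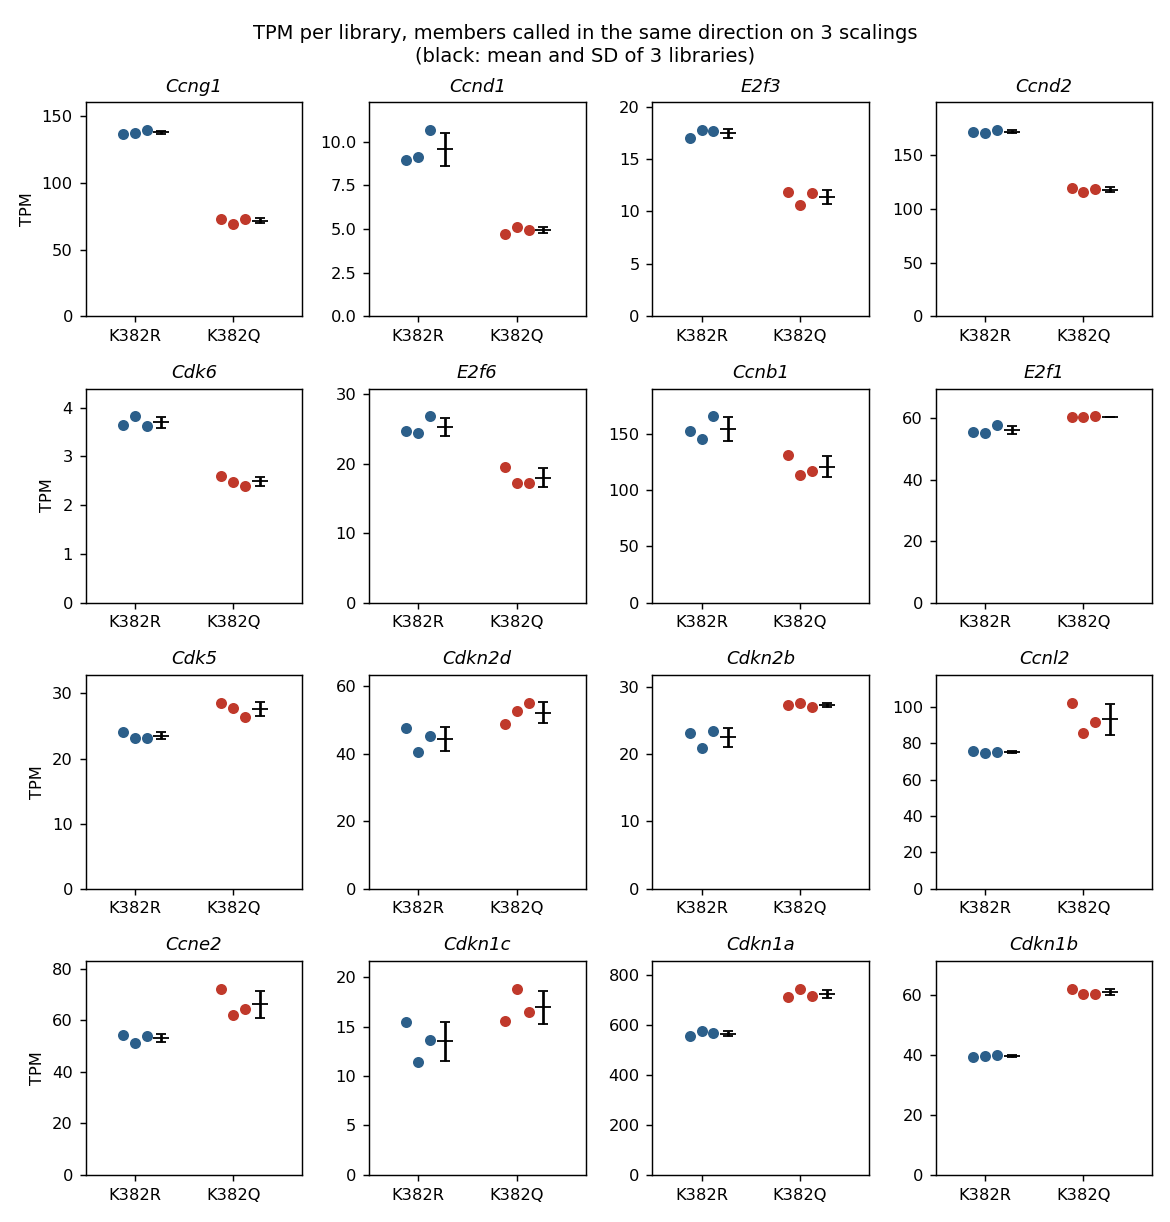
TPM in each library (vertical axes, from 0) of the 16 members called in the same direction on the 3 scales, with K382R libraries in blue, K382Q libraries in red, and the mean and SD of 3 libraries in black. The groups do not overlap in any panel, and the gap is widest in proportion for Ccng1, at 69.4 to 73.3 against 137 to 140 TPM, and Ccnd1, at 4.74 to 5.10 against 8.93 to 10.7 TPM.

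Of the CDKs that drive the cycle, Cdk4 (the partner of D-type cyclins) was the most abundant, at 254, 266 and 267 TPM in K382Q and 295, 299 and 295 in K382R. It was lower on TPM, by 0.18 on the log2 scale. Cdk6, the other kinase bound by D-type cyclins, was scarce, at 2.59, 2.48 and 2.39 TPM against 3.65, 3.82 and 3.63, and fell on all 3 scales, by 0.49 on TPM (SE 0.099, adjusted p = 0.0045). Per length, Cdk4 stood at 98.1 to 112 times the TPM of Cdk6 in K382Q libraries and 78.4 to 81.2 times in K382R libraries. Cdk1 (the mitotic kinase) was lower on TPM, with means of 75.0 ± 1.76 and 89.5 ± 3.06. Cdk2 (the kinase of E- and A-type cyclins) had overlapping groups, at 84.4 ± 4.65 and 80.5 ± 3.85 TPM, and was called higher on both rescaled forms. Cdk3 was just inside the filter, with 0.086 to 1.02 TPM in K382Q and 0.352 to 0.981 in K382R, and was not called.

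No CDK of transcription was called higher on TPM by limma (1 at an unadjusted p under 0.05), and 4 of 7 were lower there, against 11.1% and 36.9% of all genes. With median-ratio scaling 1 was higher and 0 were lower, and on rescaled coverage 1 was higher and 2 were lower. Cdk11b, the most abundant, was at 60.4, 58.8 and 61.9 TPM in K382Q against 71.0, 71.8 and 69.6 in K382R. Cdk12, which phosphorylates RNA polymerase II, was at 32.3 ± 0.505 against 38.4 ± 0.635 TPM, and both Cdk11b and Cdk12 were also called lower on rescaled coverage but not on rescaled TPM. The mediator kinase Cdk8 (32.1 ± 1.60 against 37.6 ± 1.45 TPM) and Cdk7, the CDK-activating kinase (33.3 ± 3.34 against 40.3 ± 4.11 TPM), were lower on TPM, and the libraries of Cdk7 overlapped at 37.0 in K382Q and 36.7 in K382R. Cdk19, a paralog of Cdk8, was higher in every K382Q library (14.9 to 17.7 against 13.3 to 14.8 TPM) and was not called on TPM but was called on both rescaled forms. Cdk9 and Cdk13 were not called on any of the 3 scales.

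Among the remaining CDKs, Cdk16, a kinase of the PCTAIRE family like Cdk17 and Cdk18, was the most abundant, at 134, 130 and 125 TPM in K382Q and 130, 132 and 130 in K382R, with overlapping groups on TPM and a higher call on both rescaled forms. Cdk5, a kinase best known from neurons that can also phosphorylate PPARγ, rose on all 3 scales, at 28.6, 27.7 and 26.4 TPM against 24.1, 23.2 and 23.2 (log2 fold change 0.23). Cdk17 and Cdk18 were lower on TPM, at 15.9 ± 0.814 against 20.0 ± 0.644 and at 52.8 ± 1.30 against 60.4 ± 1.07 TPM. Cdk10 and Cdk20 were not called on any of the 3 scales, Cdk14 was called higher with median-ratio scaling alone of the 3 scales, and Cdk15 did not pass the filter, listed at 0 in 4 of the 6 libraries and at most at 0.123 TPM.

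All 3 CIP/KIP inhibitors rose on all 3 scales. Of all genes, 11.1% were called higher on TPM, 19.8% with median-ratio scaling and 20.3% on rescaled coverage. Cdkn1a (p21, chr17:29309950-29319701) was the most abundant member of the module, at 714, 746 and 717 TPM in K382Q and 557, 577 and 568 in K382R. Cdkn1b (p27, chr6:134897364-134902476) showed the largest rise of the module in proportion, at 62.0, 60.4 and 60.4 TPM against 39.4, 39.8 and 40.1. In both genes the K382Q libraries were all above the K382R libraries. The log2 fold change was 0.36 for Cdkn1a (SE 0.030, adjusted p = 5.3e-05) and 0.61 for Cdkn1b (SE 0.034, adjusted p = 7.0e-06). Cdkn1c (p57) lay near the threshold, at 15.6, 18.8 and 16.5 TPM against 15.5, 11.4 and 13.6, with an adjusted p of 0.0496 (limma). Its adjusted p was 0.15 without K382Q replicate 2, 0.088 without K382Q replicate 3, 0.13 without K382R replicate 2 and 0.095 without K382R replicate 3. The CIP/KIP sum was 792, 826 and 794 TPM in K382Q against 611, 628 and 622 in K382R, a rise of 29.6%.

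Of the INK4 inhibitors, which bind CDK4 and CDK6, Cdkn2a was the most abundant, at 246, 267 and 248 TPM in K382Q and 282, 294 and 284 in K382R. Its gene value sums the transcripts of p16 and of the p53 regulator p19Arf, which share exons. It was lower on TPM with no overlap, by 0.18 on the log2 scale, but its fold change was -0.03 with median-ratio scaling. Cdkn2b (p15) rose, from 22.5 ± 1.35 to 27.3 ± 0.352 TPM, and Cdkn2d (p19Ink4d) rose from 44.5 ± 3.53 to 52.2 ± 3.19 TPM, both without overlap and on all 3 scales. The call of Cdkn2d was lost without K382Q replicate 2, K382Q replicate 3 or K382R replicate 2, at adjusted p of 0.069 to 0.083 (limma). Cdkn2c (p18) had overlapping groups at 145 ± 7.37 and 143 ± 3.99 TPM, and of the 3 scales was called higher with median-ratio scaling alone. The INK4 sum overlapped between the groups, at 459 to 495 TPM in K382Q and 491 to 500 in K382R.

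Ratios within a library compare the inhibitor Cdkn1b with the D-type cyclins Ccnd1 and Ccnd2 and with Cdk4, free of library scaling. No ratio of Cdkn1b to Ccne2, which rose, or to Cdk2, whose groups overlapped on TPM, was taken. Cdkn1b stood at 13.1, 11.8 and 12.2 times the TPM of Ccnd1 in K382Q and at 4.41, 4.37 and 3.76 times in K382R. Ccnd2 stood at 1.91 to 1.96 times the TPM of Cdkn1b in K382Q and at 4.29 to 4.35 times in K382R. Cdk4 stood at 4.10 to 4.42 times Cdkn1b in K382Q and at 7.35 to 7.52 times in K382R. All 4 of these genes differed between the groups without overlap on TPM and Cdkn1b in the opposite direction to the others, so the ratios add the size of the difference and no separate test. Cdk4 was not called on either rescaled form, with a log2 fold change of -0.02 on both. Cdkn1b stood at 0.76 on both, so the ratio of Cdk4 to Cdkn1b there rested on Cdkn1b.

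**Figure D3:**
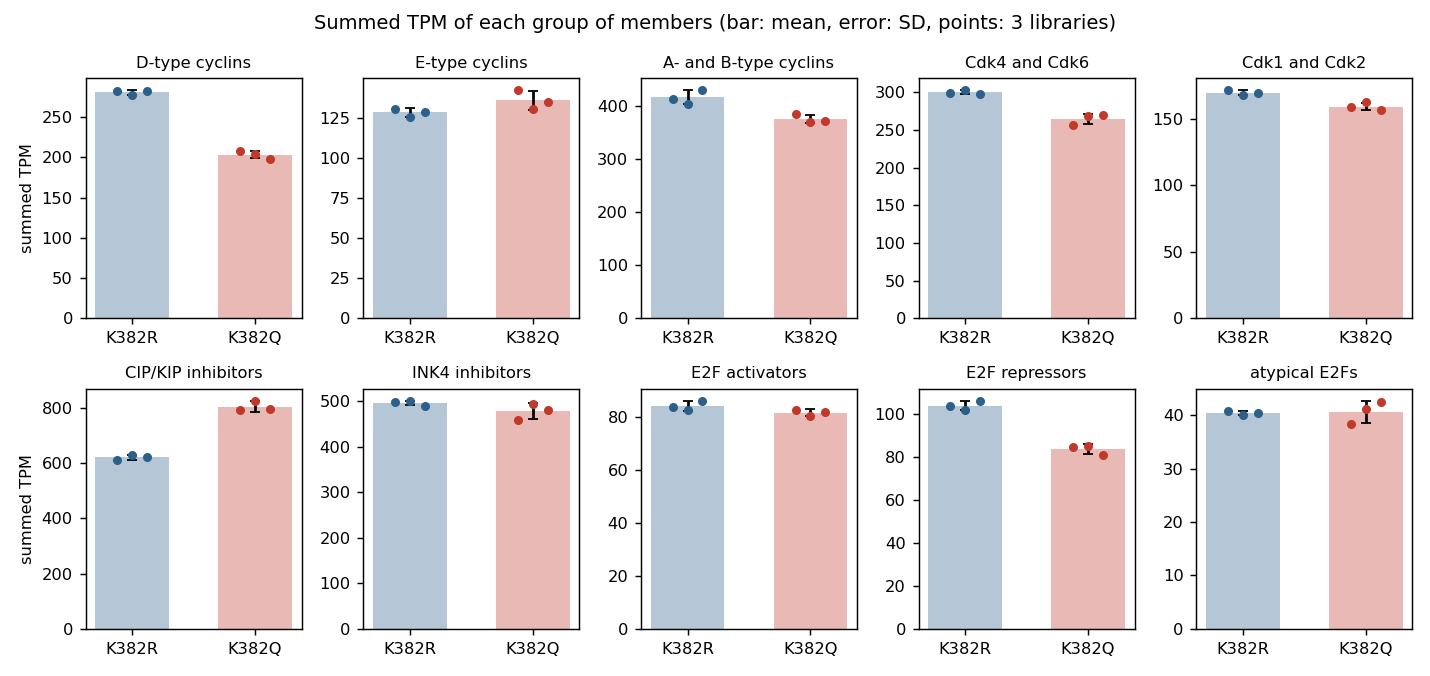
Summed TPM of each class of members (vertical axes, from 0), with bars for the mean, error bars for the SD and points for the 3 libraries of each group. The D-type cyclins (203 against 281 TPM) and the E2F repressors (83.6 against 104 TPM) were lower in K382Q and the CIP/KIP inhibitors (804 against 620 TPM) higher. Also lower without overlap were the A- and B-type cyclins (375 against 416 TPM), Cdk4 with Cdk6 (265 against 300 TPM) and Cdk1 with Cdk2 (159 against 170 TPM). The sums of the E-type cyclins, the INK4 inhibitors, the E2F activators and the atypical E2Fs overlap. All sums are on TPM without rescaling.

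The activator E2Fs, which turn on S phase genes, went in different directions. E2f1, the most abundant of them, was at 60.2, 60.4 and 60.6 TPM in K382Q against 55.5, 55.3 and 57.7 in K382R, and rose by 0.10 on the log2 scale (adjusted p = 0.035). It was called on all 3 scales, but leaving out any library other than K382R replicate 3 took its adjusted p past 0.05, up to 0.11 without K382R replicate 2. E2f3 (chr13:30090558-30170046) fell on all 3 scales, at 11.9, 10.6 and 11.7 TPM against 17.0, 17.7 and 17.7, with a log2 fold change of -0.60 (SE 0.063, adjusted p = 1.7e-04). E2f2 had overlapping groups, at 9.74 ± 0.697 and 10.5 ± 0.794 TPM. Within a library, E2f1 stood at 5.08 to 5.68 times the TPM of E2f3 in K382Q and at 3.11 to 3.27 times in K382R.

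All 3 E2F repressors, which bind target genes in resting cells, were called lower by TPM, where 36.9% of all genes were. With median-ratio scaling 1 of them was lower, and on rescaled coverage 2 were. E2f4, the most abundant, was lower on TPM, at 51.4, 53.3 and 49.6 TPM in K382Q and 61.8, 60.6 and 64.0 in K382R (log2 fold change -0.27). E2f6 fell on all 3 scales, at 19.6, 17.2 and 17.1 TPM against 24.7, 24.4 and 26.8 (log2 fold change -0.49, SE 0.068, adjusted p = 7.2e-04). E2f5 was lower on TPM, at 14.2 ± 0.461 against 16.4 ± 0.901, and shares 43.4% of its annotated exon bases with Rbis on the opposite strand. Rbis was at 139, 120 and 137 TPM in K382Q and 137, 137 and 144 in K382R. Its groups overlapped, and it was not called on TPM but was called higher on rescaled coverage. The atypical E2Fs, which repress E2F targets late in S phase, were not called on TPM, and E2f7 was called higher on both rescaled forms. E2f7 was at 19.9, 20.3 and 21.5 TPM in K382Q against 20.0, 20.1 and 20.0 in K382R, and E2f8 at 20.1 ± 1.45 against 20.4 ± 0.484.

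Promoter sequences were matched from RefSeq (GRCm38.p6, a build other than that of the files) for 39 of the 50 members, 36 of them tested, as 300-base windows around annotated start sites. Sets of letters for 3 motifs were searched on both strands: E2F-like letters (TTTGGCGC, TTTCCCGC, TTTCGCGC or TTTGCCGC), the letters TTTGAA of the cell cycle homology region (CHR), and CCAAT, the letters bound by NF-Y. The E2F-like letters were found in 6 of the 39 members (15.4%) and 2.6% of all genes with a window. These were Cdk1, Cdk2, Cdkn2a, E2f2, E2f3 and E2f7, of which only E2f3 was called in the same direction on all 3 scales. TTTGAA was found in 7 members (17.9%) and 20.2% of all genes, and CCAAT in 21 members (53.8%) and 41.1% of all genes. The windows of the mitotic genes Cdk1, Ccnb1 and Ccnb2, and those of E2f3, Ccng1 and Cdkn1b as members with large changes that had a window, are shown 5′ to 3′, with the letters found in capitals. They lie at chr10:69352863-69353162 (minus strand), chr13:100786437-100786736 (minus), chr9:70421505-70421804 (minus), chr13:29986014-29986313 (minus, 1 of 2 windows of E2f3), chr11:40755237-40755536 (minus) and chr6:134920151-134920450 (plus).
Cdk1: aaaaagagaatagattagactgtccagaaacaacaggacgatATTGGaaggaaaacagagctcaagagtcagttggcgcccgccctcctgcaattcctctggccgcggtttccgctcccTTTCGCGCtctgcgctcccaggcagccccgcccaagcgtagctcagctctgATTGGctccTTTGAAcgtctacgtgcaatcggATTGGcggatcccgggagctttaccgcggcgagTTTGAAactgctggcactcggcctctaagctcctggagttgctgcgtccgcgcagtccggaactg
Ccnb1: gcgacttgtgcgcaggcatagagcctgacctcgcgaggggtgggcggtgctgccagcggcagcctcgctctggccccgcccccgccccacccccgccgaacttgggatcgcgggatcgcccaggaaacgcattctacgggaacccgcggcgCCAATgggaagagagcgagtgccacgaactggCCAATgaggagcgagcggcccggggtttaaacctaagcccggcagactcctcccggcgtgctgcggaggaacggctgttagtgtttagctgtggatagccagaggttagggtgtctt
Ccnb2: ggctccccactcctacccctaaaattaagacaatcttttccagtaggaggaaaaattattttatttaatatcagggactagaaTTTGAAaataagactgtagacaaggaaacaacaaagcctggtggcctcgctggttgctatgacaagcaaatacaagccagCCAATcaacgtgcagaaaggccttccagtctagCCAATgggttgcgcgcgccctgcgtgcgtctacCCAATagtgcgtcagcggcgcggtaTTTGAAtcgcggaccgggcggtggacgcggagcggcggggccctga
E2f3: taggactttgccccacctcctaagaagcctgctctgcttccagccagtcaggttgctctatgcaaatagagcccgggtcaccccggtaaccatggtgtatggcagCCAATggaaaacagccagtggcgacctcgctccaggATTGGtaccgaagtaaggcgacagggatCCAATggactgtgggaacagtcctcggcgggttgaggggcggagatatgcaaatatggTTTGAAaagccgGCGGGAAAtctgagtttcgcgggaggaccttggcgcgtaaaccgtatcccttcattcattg
Ccng1: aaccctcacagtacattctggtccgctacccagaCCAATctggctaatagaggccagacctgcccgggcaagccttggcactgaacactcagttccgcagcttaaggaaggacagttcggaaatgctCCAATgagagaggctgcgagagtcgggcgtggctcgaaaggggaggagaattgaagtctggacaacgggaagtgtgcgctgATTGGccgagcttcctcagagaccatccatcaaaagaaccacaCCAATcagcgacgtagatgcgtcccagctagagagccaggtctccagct
Cdkn1b: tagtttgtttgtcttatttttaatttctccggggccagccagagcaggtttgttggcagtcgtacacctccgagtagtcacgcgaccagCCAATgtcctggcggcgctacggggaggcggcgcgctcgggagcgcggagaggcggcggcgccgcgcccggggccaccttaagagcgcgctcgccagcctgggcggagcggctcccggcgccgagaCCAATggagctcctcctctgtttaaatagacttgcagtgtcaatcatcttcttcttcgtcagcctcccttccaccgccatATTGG

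The Cdk1 window held 1 E2F-like match, 2 of TTTGAA and 3 of CCAAT, and the Ccnb2 window 2 of TTTGAA and 3 of CCAAT. The Ccnb1 window held 2 of CCAAT and neither of the other sets. Variants of TTTGAA were not searched, such as the letters TTTAAA that the Ccnb1 window holds. The E2f3 window shown held 1 E2F-like match, 1 of TTTGAA and 3 of CCAAT, and the other E2f3 window, at chr13:29984342-29984641 (minus), held none of these. The Ccng1 window held 4 matches of CCAAT and the Cdkn1b window 3, and neither held the other letters. Such matches describe the letters of these windows and not binding.

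Other genes of the pathway, taken from lists of known function, were set beside the members. Of all genes, 11.1% were called higher and 36.9% lower on TPM, and 19.8% and 20.4% with median-ratio scaling. Of 12 pocket protein, DP and DREAM or MuvB genes, a list that holds repressors of E2F targets, the DP partners of E2Fs and the activators Mybl2 and Foxm1, 2 were higher and 3 lower on TPM (median log2 fold change -0.09), and 2 were higher and 1 was lower with median-ratio scaling (median 0.06). Rb1 was at 22.0, 20.4 and 19.6 TPM in K382Q against 18.1, 18.7 and 17.6 in K382R, and its relative Rbl1 (p107) at 32.5, 30.8 and 32.3 against 27.4, 26.3 and 28.6. The call of Rb1 was lost without 4 of the 6 libraries in turn, at adjusted p of 0.060 to 0.097 (limma). Tfdp1, the DNA-binding partner of E2Fs, was at 172, 169 and 163 TPM against 202, 202 and 211, and fell by 0.29 on the log2 scale. Lin54, the DREAM subunit that binds TTTGAA, was lower on TPM, by 0.20. Of 16 regulators of CDK activity and cyclin turnover, 3 were higher and 5 lower on TPM (median -0.12), and 6 were higher and 2 lower with median-ratio scaling (median 0.03). Those called on TPM included Cdkn3, a phosphatase that acts on CDKs, with a log2 fold change of 0.61, the phosphatase Cdc25b at 0.24, and the ubiquitin ligase genes Skp1 at -0.33 and Fbxw7 at -0.30. The calls of Lin54 and Fbxw7 were lost with median-ratio scaling. Of 8 cyclins named with a letter only, 1 was higher and 2 were lower on TPM (median -0.18), and 2 were higher (Ccni and Ccny) and 0 lower with median-ratio scaling (median -0.04). Ccni, at 317, 310 and 312 TPM against 243, 247 and 237, had a log2 fold change of 0.37, and Ccnc and Ccnk had -0.26 and -0.22, both calls lost with median-ratio scaling.

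The effector genes of S phase and mitosis gave counts of calls whose balance turned with the scaling, as lower calls were lost and other genes were called higher. Of 34 genes of replication licensing and DNA synthesis, 4 were higher and 17 lower on TPM (median -0.12), and 10 were higher and 1 was lower with median-ratio scaling. Of 40 mitosis genes, 0 were higher by limma (0 at an unadjusted p under 0.05) and 20 were lower on TPM (median -0.12), and 11 were higher and 4 lower with median-ratio scaling. Over all genes tested, 36.9% were lower and 11.1% higher on TPM, 20.4% were lower and 19.8% higher with median-ratio scaling, and the median was -0.14. The 1 replication gene lower on both scales was Rrm2, a subunit of ribonucleotide reductase, at 349, 336 and 352 TPM in K382Q against 582, 590 and 609 in K382R, with a log2 fold change of -0.78 (SE 0.031, adjusted p = 1.9e-06). Orc1 was lower on TPM, by 0.35, a call lost with median-ratio scaling. The nucleotide enzyme Dut rose by 0.35 and the polymerase clamp Pcna by 0.24. In the mitosis list, Cdc20, an activator of the ubiquitin ligase that removes B-type cyclins, fell by 0.40, and the kinetochore gene Nuf2 fell by 0.34.

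Since Cdkn1a and Ccng1 are both known p53 targets and moved in opposite directions, 19 other p53 target genes were set beside them. Of these, 12 were lower and 2 higher (median -0.55), and 11 were lower and 4 higher with median-ratio scaling (median -0.40). Over all genes tested, 36.9% were lower and 11.1% higher on TPM, and 20.4% and 19.8% with median-ratio scaling. Pmaip1 (NOXA, which promotes cell death) was at 2.36, 2.45 and 2.38 TPM in K382Q against 7.23, 7.04 and 8.76 in K382R, a log2 fold change of -1.49 (SE 0.11, adjusted p = 2.5e-05). Zmat3 was at 11.9, 12.4 and 11.5 TPM against 25.1, 23.7 and 25.4, a log2 fold change of -1.02. The 2 higher genes were Ddb2 (0.43) and Gadd45a (0.11), and the latter lost its call without 5 of the 6 libraries. Cdkn1a stood at 9.81, 10.8 and 9.78 times the TPM of Ccng1 in K382Q and at 4.06, 4.19 and 4.07 times in K382R.

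**Figure D4:**
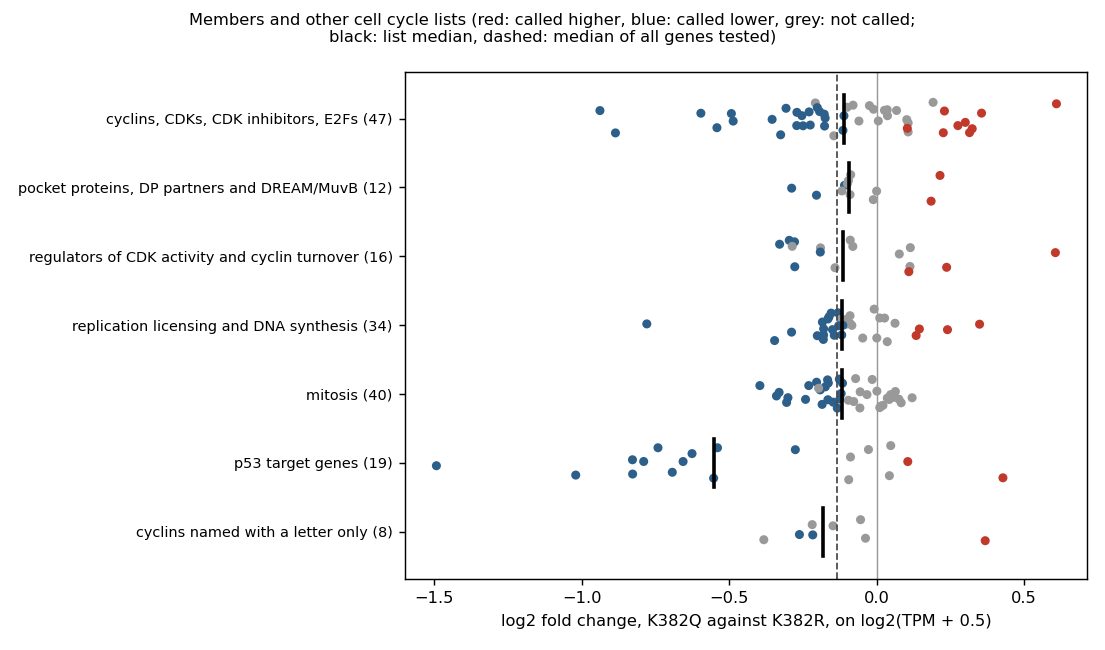
Log2 fold change of K382Q against K382R on the log2(TPM + 0.5) scale (horizontal axis) of each tested gene of the module and of the 6 other lists (rows, with the number tested), with points spread vertically for legibility only. Black bars mark list medians and the dashed line the median of all genes at -0.14. The p53 targets have a median of -0.55, and the medians of the other lists lie between -0.18 and -0.09.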

How the data were processed

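RNA-seq was performed on 6 libraries, 3 per group, with a kit that does not mark strand. Per the study's methods, the authors trimmed paired-end reads, used HISAT2 for alignment against GRCm39 and StringTie for quantification (annotation release not given in the sources used here). The deposited tables give, per gene and library, coverage, FPKM and TPM, all made by the authors; counts were not analysed here, so the DESeq2 test of the study was not used. A gene value sums its transcripts, so a shift between transcripts can move TPM and coverage differently.

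Rows with the same gene identifier were summed. Values were taken as log2(TPM + 0.5), and genes that reached 0.5 TPM in 3 or more of the 6 libraries were tested with limma 3.58.1 (R 4.3.3) with an intensity trend and Benjamini-Hochberg adjustment over all 15426 genes. Fold changes are on the log2(TPM + 0.5) scale, which understates changes of low genes. An exact permutation test of 3 against 3 libraries cannot give a p under 0.1 and was not used. The script was tested on simulated data. Exon overlap was taken from GENCODE and promoters from RefSeq.

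Members, lists and thresholds were chosen with earlier results of these data known. All library values are given for members with an adjusted p under 0.05 and an absolute log2 fold change of at least 0.58 and for the most abundant member of each role. Library values of some other members, such as Ccne2, Ccnb1, Cdk5 and E2f6, were added after their values were seen. From each other list the 2 genes with the largest calls each way are named. No 2 libraries were duplicates: at most 0.0583% of values were identical in any pair.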

Additional observations from a re-analysis of the deposited data

How the results depend on the processing

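Of 31 called members, 13 kept their call in all 18 alternatives (pseudocount, filter, FPKM, coverage, scaling, variance model, replicate block, each library left out): Ccnd1, Ccnd2, Ccne2, Ccnb1, Ccng1, Ccnl2, Cdk6, Cdk5, Cdkn1a, Cdkn1b, Cdkn2b, E2f3 and E2f6. Members called higher and lower numbered 17 and 9 with median-ratio scaling (19.8% and 20.4% of all genes) and 17 and 9 with quantile normalization. On coverage with median-ratio scaling, an alternative chosen after seeing the data, they numbered 15 and 10 (20.3% and 21.2% of all genes). At a fold over 1.5, 1 was higher and 3 were lower, where 3.74% and 8.34% of all genes were. Over 2-fold, 0 and 0 members were, where 1.27% and 2.61% of all genes were. The members' median turned from -0.11 to 0.0406, 0.0484 and 0.0229 on the 3 rescaled forms. Ccne1 turned to 0.0406, 0.0507 and 0.0462, and Ccnb2 to 0.0377, 0.0226 and 0.0371. Ccnt1 turned to 0.0143 on rescaled coverage. Cdk16 turned from -0.01 to 0.0733 with FPKM, 0.14 and 0.12 with median-ratio scaling and quantile normalization, 0.0343 with coverage, 0.10 on rescaled coverage, and ranged from -0.0323 to 0.0146 with 1 library left out. The cause was not tested, beyond the shift of all genes that these scalings remove.

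With 1 library left out, 6 to 8 members were called higher and 17 to 20 lower, and the uncalled Ccna2 ranged from -0.0078 to 0.0309. The calls of Ccne1, Ccnb2, Ccnt1, Cdk7, Cdkn1c, Cdkn2d, E2f1 and E2f5, and of Rb1, Gadd45a and Ccnk, were each lost in 3 to 5 of the 6 cases, at adjusted p of 0.051 to 0.15 (limma). The median of the members ranged from -0.14 without K382Q replicate 1 to -0.07 without K382Q replicate 3. With the replicate number as a block, 7 members were higher and 21 lower. The samples share only a number: deviations of same-numbered libraries correlated at -0.02, 0.05 and 0.02 across genes, and K382Q replicate 1 correlated best with K382R replicate 3. Cdk3, the scarcest member tested, spread widest in proportion within its groups, and the part of depth in this was not tested, since counts were not analysed here.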
